A study of Mus musculus with 15 samples.

Results

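To describe what loss of myotubularin did to muscle transcripts when every animal had received the drug, the 3 Mtm1-/y + TAM libraries were compared with the 4 WT + TAM libraries, out of 15 libraries in all. Each library was made from the tibialis anterior, a fast muscle of the lower leg, of a male 129Pas mouse of 7 weeks. Mtm1-/y + TAM stands for males in which the X-linked gene *Mtm1* was mutated and which received tamoxifen (TAM), and WT + TAM for wild-type males that received it. The other 8 libraries, 4 from untreated WT and 4 from untreated Mtm1-/y mice, shared the estimate of the spread and served to show where the genotype difference changed. Both groups had received the drug, so their difference is one of genotype and does not give the effect of tamoxifen itself. The sources used here give neither the dose, route and duration of tamoxifen nor the design of the mutant allele. The labels do not say whether any mice shared a litter, so p-values measure the spread between these libraries.

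Myotubularin is a lipid phosphatase that removes a phosphate from phosphoinositides on endosomal membranes, and males who lack it develop X-linked myotubular myopathy. In the affected muscle the fibres are small, the nuclei lie centrally and the triads, where the T-tubule meets the sarcoplasmic reticulum to couple excitation to calcium release, are disorganised. Tamoxifen is a selective oestrogen receptor modulator.

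*Mtm1* itself (chrX:71210767-71315691, plus strand) was measured first. Its level was 13.5, 16.9, 17 and 17.7 CPM (counts scaled to the library size and its TMM factor) in WT + TAM replicates 1 to 4, and 3.71, 3.04 and 3.7 CPM in Mtm1-/y + TAM replicates 1 to 3. The mutant libraries lay below every control, with a log2 fold change (log2FC) of -2.23 ± 0.13 (standard error) and an adjusted p of 2.02e-07 in edgeR's quasi-likelihood test. Every log2FC below is Mtm1-/y + TAM minus WT + TAM from this model with its standard error, every adjusted p is Benjamini-Hochberg corrected over all 15533 tested genes, and a gene with an adjusted p under 0.05 is called a differentially expressed gene (DEG).

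Total counts were 18042558 to 45276748 in the 7 libraries, so that a count of 3 was worth 0.0663 to 0.166 CPM. The first principal component of the 7 libraries (46.5% of the variance) placed the 4 WT + TAM libraries at -40.9 to -23 and the 3 Mtm1-/y + TAM libraries at 41.3 to 49.5. The second component (23.1%) placed WT + TAM replicate 1 at 67.6 and the other 6 libraries between -23.5 and 1.89. WT + TAM replicate 1 differed more than 2-fold from the mean of its own group in 1502 genes, against 423 to 831 genes in each of the other 6. Counts of genes and list members that changed without that library are therefore also given without it. Among the 8 untreated libraries, Mtm1-/y replicate 1 differed more than 2-fold from its own group in 2019 genes, against 356 to 784 in each of the other 7. The libraries were of skeletal muscle, as the summed level of 10 markers of that tissue was 191000 CPM in WT + TAM replicate 1, 180000 to 206000 CPM in WT + TAM replicates 2 to 4 and 160000 to 168000 CPM in the mutants. These markers do not tell one muscle from another.

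Under tamoxifen, loss of *Mtm1* was accompanied by a wide change in transcript levels. Of 15533 tested genes, 3121 (20.1%) were DEGs, of which 1652 (10.6% of those tested) were higher and 1469 (9.46%) lower in Mtm1-/y + TAM. A change of more than 2-fold was reached by 934 DEGs (6.01%), with 557 higher and 377 lower, and a change of more than 4-fold by 237 higher and 95 lower. The 2 groups did not overlap in 2886 of the 3121 DEGs, against 4915 (31.6%) of all tested genes, 17.2% with the mutants higher and 14.4% with the mutants lower. Without WT + TAM replicate 1 there were 3339 DEGs (21.5%), with 1722 higher (11.1%) and 1617 lower (10.4%). Both sets shared 2702 genes, which are 86.6% of the first and 80.9% of the second, and 0 of these changed direction. Of the other single-library omissions, that of Mtm1-/y + TAM replicate 2 left 1656 DEGs of 15681 tested genes and that of the untreated Mtm1-/y replicate 1, which enters through the shared spread, 4097. There were 2119 DEGs without Mtm1-/y + TAM replicate 1, 2121 without Mtm1-/y + TAM replicate 3 and 2246 without WT + TAM replicate 3. List counts given below for these omissions stand beside these lower totals. In whole muscle, fewer cells of a type and less RNA per cell cannot be told apart.

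Among protein-coding DEGs whose groups did not overlap, whose mean log2 CPM reached 1 and which were also DEGs without WT + TAM replicate 1, the 10 largest increases were those of *Krt18*, *Sln*, *Rrad*, *Cilp*, *Mt3*, *S100a4*, *Serpinb1a*, *Cpne2*, *Krt80* and *Ahnak2*. *Sln* (chr9:53850164-53854560, plus strand), which encodes sarcolipin, the small inhibitor of the sarcoplasmic reticulum calcium pump, was measured at 2.0, 3.42, 1.98 and 3.36 CPM in WT + TAM replicates 1 to 4 and at 389, 392 and 452 CPM in Mtm1-/y + TAM replicates 1 to 3. The lowest mutant library was thus far above the highest control, and the fitted level was 155-fold higher (log2FC 7.28 ± 0.65, adjusted p = 1.9e-05). *Krt18* (chr15:102028180-102032027, plus strand), an epithelial-type keratin that pairs with keratin 8, was at 0.163, 0.102, 0.169 and 0.267 CPM in the controls and at 66.8, 19.5 and 46.8 CPM in the mutants. The mutants differed widely among themselves, yet all stood clear of the controls (log2FC 7.92 ± 0.79, adjusted p = 4.34e-05). *Rrad*, a small GTPase that inhibits L-type calcium channels, was at 0.858, 0.816, 1.04 and 0.839 CPM against 106, 78 and 49.2 CPM (log2FC 6.42 ± 0.81, adjusted p = 0.000235). Among the controls it varied little, and each mutant was far above them.

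*Cilp*, a secreted matrix protein of cartilage, was spread over 6.47 to 31.7 CPM in the controls and 485 to 678 CPM in the mutants, a 32-fold difference. The zinc-binding metallothionein gene *Mt3* rose 29.3-fold (log2FC 4.87 ± 0.59). *S100a4*, a calcium-binding protein of motile cells and fibroblasts, rose 24.6-fold (1.28 to 2.7 CPM in the controls, 27.8 to 67.4 CPM in the mutants), and the protease inhibitor gene *Serpinb1a* rose 21.4-fold (2.7 to 4.64 CPM in the controls, 55.3 to 95.5 CPM in the mutants). The copine gene *Cpne2*, whose product binds phospholipids when calcium is present, had the tightest values of the 10, with 4.58, 5.1, 4.25 and 4.23 CPM in the controls and 74.2, 87.3 and 73.4 CPM in the mutants (log2FC 4.11 ± 0.24, adjusted p = 2.02e-07). Its libraries agreed closely within each group. *Krt80*, a type II keratin, rose 15.4-fold, and *Ahnak2*, a giant scaffold protein related to AHNAK, rose 14.8-fold to a near-constant 72.6, 69.4 and 69.8 CPM. All 10 increases remained DEGs in each of the 15 omissions of a single library.

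**Figure D1:**
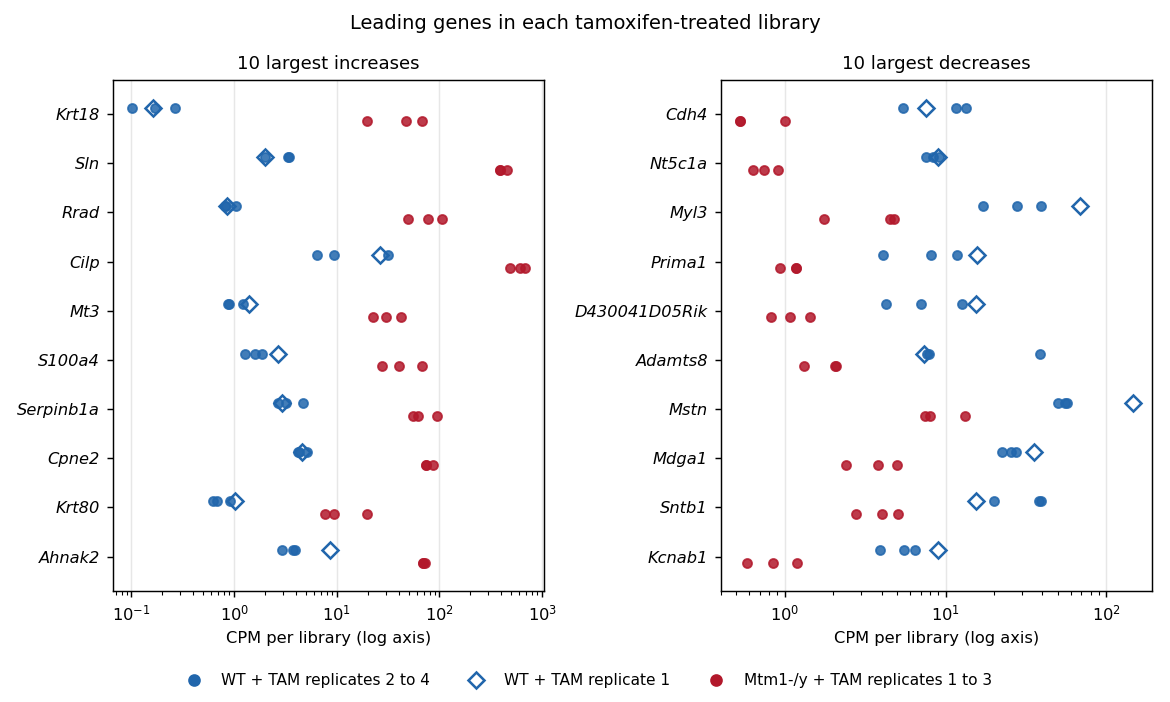
CPM on a log axis of the 10 genes with the largest increases (left) and the 10 with the largest decreases (right), a point per library, with WT + TAM replicate 1 as an open diamond. Genes were taken only where the groups did not overlap, so the mutant points lie apart from all control points in every row by choice. The changes run from a 242-fold increase of *Krt18* to a 14.6-fold decrease of *Cdh4*.

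The 10 largest decreases by the same rule were those of *Cdh4*, *Nt5c1a*, *Myl3*, *Prima1*, *D430041D05Rik*, *Adamts8*, *Mstn*, *Mdga1*, *Sntb1* and *Kcnab1*. *Cdh4* (chr2:179442431-179899373, plus strand), the cell adhesion molecule R-cadherin, was at 7.52, 13.4, 11.7 and 5.41 CPM in the controls and at 1.01, 0.53 and 0.529 CPM in the mutants. No mutant reached the lowest control, and the fitted level was 14.6-fold lower (log2FC -3.87 ± 0.44, adjusted p = 6.98e-05). *Mstn* (chr1:53061640-53068079, plus strand), which encodes myostatin, the secreted inhibitor of muscle growth, was at 147, 50.5, 57.3 and 55.4 CPM in the controls and at 13.3, 7.44 and 7.96 CPM in the mutants. WT + TAM replicate 1 was the highest and stood apart from the 3 other controls, and the log2FC was -3.04 ± 0.48 with it (adjusted p = 0.00105) and -2.53 without it (adjusted p = 0.000685).

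*Nt5c1a*, a cytosolic nucleotidase that degrades AMP in muscle, fell 11.2-fold (7.55 to 9.12 CPM in the controls, 0.629 to 0.90 CPM in the mutants). *Myl3*, the myosin light chain of slow muscle and ventricle, was at 69, 27.9, 17.2 and 39.2 CPM in the controls and 1.75, 4.79 and 4.51 CPM in the mutants. Replicate 1 was the highest control, and every mutant was below every control, as the rule required. The log2FC was -3.33 ± 0.5 with replicate 1 (adjusted p = 0.000775) and -2.88 without it (adjusted p = 0.000632). *Prima1*, the membrane anchor of acetylcholinesterase, fell 9.18-fold and *Sntb1*, a syntrophin of the dystrophin complex, fell 7.17-fold. *Kcnab1*, an auxiliary subunit of voltage-gated potassium channels, fell 6.89-fold (3.89 to 8.99 CPM in the controls, 0.583 to 1.18 CPM in the mutants). *Adamts8*, a secreted metalloprotease, was at 7.4, 7.65, 7.91 and 38.5 CPM in the controls, where replicate 4 stood apart, and at 2.07, 2.07 and 1.31 CPM in the mutants (log2FC -3.1 ± 0.65). The predicted gene *D430041D05Rik* fell 9.07-fold and *Mdga1*, a cell surface protein with immunoglobulin domains, fell 7.45-fold. These 10 decreases also remained DEGs in each single-library omission.

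The most abundant DEGs by CPM, a scale that is not corrected for gene length, changed by smaller factors. *Des*, the muscle intermediate filament desmin, rose 2.13-fold (3322, 2728, 3135 and 3372 CPM in the controls, 6193, 7319 and 6529.6 CPM in the mutants) (adjusted p = 6.98e-05), and every mutant was above every control. The imprinted non-coding RNA *H19* rose 2.03-fold (adjusted p = 0.00199). *Fhl1*, *Actn2* and *Neat1* rose 2.17, 1.85 and 1.9-fold with adjusted p values of 0.0451, 0.0173 and 0.0315. *Actn2*, the alpha-actinin of the Z-disc, overlapped between the groups, as the controls covered 1067 to 2345 CPM and the mutants 2329.9 to 2953 CPM. The fast calcium pump *Atp2a1* (44258 ± 3033 CPM, SD, n = 4, against 33188 ± 1326 CPM, SD, n = 3), the fast-fibre alpha-actinin *Actn3* and the glycogen phosphorylase *Pygm* fell 1.33, 1.45 and 1.4-fold with adjusted p values of 0.0451, 0.00875 and 0.0201. The calls of these genes were lost for *Fhl1* on omission of any library other than WT replicates 1 and 2, WT + TAM replicate 4 and Mtm1-/y replicate 1 (adjusted p 0.0539 to 0.135), for *Neat1* without WT + TAM replicates 2, 3 and 4 or Mtm1-/y + TAM replicates 1, 2 and 3 (0.066 to 0.0886), for *Atp2a1* on omission of any library other than WT replicate 1, WT + TAM replicate 1 and Mtm1-/y replicates 1 and 3 (0.0507 to 0.145), and for *Actn2* and *Pygm* without WT + TAM replicate 3 or Mtm1-/y + TAM replicates 2 and 3 (0.0517 to 0.0668 and 0.0556 to 0.0864).

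Genes of the neuromuscular junction, where motor axons release acetylcholine onto a receptor of 5 subunits, were compared next. The adult receptor holds the products of *Chrna1*, *Chrnb1*, *Chrnd* and *Chrne*, and the fetal receptor that of *Chrng* in place of *Chrne*. Myogenic factors such as myogenin bind E-boxes, of the form CANNTG, in promoters of receptor genes. The 250 bases before the RefSeq start site (GRCm38.p6) of the 4 subunit genes with an entry, *Chrna1* (chr2:73580339-73580588, minus strand), *Chrnb1* (chr11:69795938-69796187, minus strand), *Chrne* (chr11:70619195-70619444, minus strand) and *Chrng* (chr1:87205561-87205810, plus strand), are shown because all these genes were higher in the mutants, with each CAGCTG in capitals.
Chrna1: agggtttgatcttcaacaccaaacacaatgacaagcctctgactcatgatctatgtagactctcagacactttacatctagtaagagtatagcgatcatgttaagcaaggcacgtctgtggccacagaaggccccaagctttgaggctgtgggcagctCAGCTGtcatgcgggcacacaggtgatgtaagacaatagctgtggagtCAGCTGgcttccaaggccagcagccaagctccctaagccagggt
Chrnb1: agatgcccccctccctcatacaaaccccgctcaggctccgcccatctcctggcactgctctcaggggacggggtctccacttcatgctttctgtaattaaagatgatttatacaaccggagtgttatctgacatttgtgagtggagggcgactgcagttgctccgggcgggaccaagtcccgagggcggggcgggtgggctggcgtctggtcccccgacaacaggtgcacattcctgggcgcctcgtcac
Chrne: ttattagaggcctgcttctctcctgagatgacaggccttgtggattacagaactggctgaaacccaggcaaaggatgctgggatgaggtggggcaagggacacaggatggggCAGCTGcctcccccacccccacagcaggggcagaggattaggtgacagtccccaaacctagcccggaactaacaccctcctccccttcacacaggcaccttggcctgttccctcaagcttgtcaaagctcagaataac
Chrng: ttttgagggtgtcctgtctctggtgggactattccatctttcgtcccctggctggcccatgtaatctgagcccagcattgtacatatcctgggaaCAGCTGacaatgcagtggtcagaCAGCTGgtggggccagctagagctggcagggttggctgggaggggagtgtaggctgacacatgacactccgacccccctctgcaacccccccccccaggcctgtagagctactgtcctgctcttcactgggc
*Chrna1* held CAGCTG 92 and 44 bases before the start, *Chrng* 155 and 132 bases before it, *Chrne* 1 time at 138 bases, and *Chrnb1* 0 times. CAGCTG reads the same on both strands and was found in 13% of 32851 RefSeq promoters of this length, the general form CANNTG in 66.2% and a MEF2-type motif (CTA and TAG with 4 bases between) in 3.2%. CANNTG, which includes every CAGCTG, occurred 3 times in *Chrna1*, *Chrnb1* and *Chrng* and 1 time in *Chrne*, and the MEF2-type motif was in 0 of the 4 windows. A match or its absence describes these letters and no more.

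The 5 subunit transcripts were all higher in Mtm1-/y + TAM. *Chrna1* was at 48, 41.5, 34.1 and 27.8 CPM in WT + TAM replicates 1 to 4 and at 112, 103 and 72.5 CPM in Mtm1-/y + TAM replicates 1 to 3 (log2FC 1.34 ± 0.21, adjusted p = 0.000672). *Chrnb1* was at 60.5, 61.4, 56.7 and 68.2 CPM against 137, 137 and 123 CPM (log2FC 1.1 ± 0.088, adjusted p = 2.75e-06), and *Chrnd* at 8.5, 7.95, 4.66 and 5.3 CPM against 22.6, 22.1 and 14.4 CPM (log2FC 1.58 ± 0.26, adjusted p = 0.000887). In all 3 the groups stood apart and the call held in every omission. *Chrne* was at 18.8 to 35.4 CPM in the controls and 36 to 56.7 CPM in the mutants (log2FC 0.84 ± 0.21, adjusted p = 0.0113), with WT + TAM replicate 1 close to the lowest mutant, and was not a DEG without Mtm1-/y + TAM replicate 2 (adjusted p = 0.0762). *Chrng* was at 0.777, 1.17, 0.869 and 0.381 against 1.7, 1.59 and 1.41 CPM, close to the threshold (log2FC 0.97 ± 0.33, adjusted p = 0.0473), and lost its call on omission of any library other than WT + TAM replicate 2 and Mtm1-/y replicates 1, 2 and 3 (0.0527 to 0.121). *Chrnb1*, *Chrne* and *Chrng* were singled out after their values were seen.

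Of 19 tested genes of the neuromuscular junction, 8 were higher and 1 lower (47.4%, against 20.1% of all tested genes), with a median log2FC of 0.39 (0.55 without WT + TAM replicate 1). The median of all tested genes was -0.017. Without Mtm1-/y + TAM replicate 2, 5 of the junction genes were higher and 0 lower, beside 1656 DEGs among all 15681 genes then tested. *Ncam1*, the neural cell adhesion molecule that spreads along fibres which have lost their nerve, rose 4.58-fold (19, 11.3, 9.29 and 9.76 CPM in the controls, 53.2, 64.4 and 51.1 CPM in the mutants) (adjusted p = 0.000359). Every mutant was above every control. *Erbb2*, a receptor for the nerve-derived factor neuregulin, rose 2.39-fold to 15, 15.2 and 15.1 CPM (adjusted p = 1.37e-05). *Colq*, the collagen tail that anchors acetylcholinesterase, had a log2FC of 1.06 ± 0.34 (adjusted p = 0.0428), and *Agrn*, which encodes agrin, the organiser of the synapse and here the one lower member, -0.53 ± 0.17 (adjusted p = 0.0416). Both were close to the threshold, and *Colq* lost its call on omission of any library other than WT + TAM replicate 1, Mtm1-/y replicates 1, 2, 3 and 4 and Mtm1-/y + TAM replicate 3 (0.0535 to 0.224) and *Agrn* without WT replicates 2 and 3, WT + TAM replicates 2 and 3 or Mtm1-/y + TAM replicates 1 and 2 (0.0534 to 0.137).

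Genes known to respond to denervation had the highest median log2FC of the lists, at 1.61. Of 20 tested, 13 were higher and 1 lower (70%, against 20.1% of all tested genes). Without WT + TAM replicate 1 the median was 1.63, with 12 higher and 1 lower. Over all 15 single-library omissions 12 to 14 were higher and 1 lower. This list shares *Chrna1*, *Chrnd*, *Chrng* and *Ncam1* with the previous one. *Sox11*, a transcription factor of embryonic neurons and regenerating axons, was at 0.123, 0.612, 0.29 and 0.229 CPM in the controls and 13.1, 10.7 and 9.89 CPM in the mutants (log2FC 5.21 ± 0.35, adjusted p = 4.27e-07). It was low in all controls and similar in all mutants. *Runx1*, a transcription factor of denervated fibres, was at 3.8, 1.99, 1.3 and 1.56 against 23.8, 19.1 and 16.1 CPM (log2FC 3.2 ± 0.36, adjusted p = 6.43e-05). *Ankrd1*, a stretch-responsive protein of the sarcomere, rose 13.7-fold and *Gdf5*, a ligand of the BMP family, rose 8.66-fold (adjusted p = 0.000632 and 0.0105). *Gadd45a*, a stress-induced gene of atrophying fibres, rose 5.93-fold (12 to 29.97 CPM in the controls, 105 to 163 CPM in the mutants), the potassium channel gene *Kcnn3*, which appears in denervated fibres, rose 3.86-fold, and *Hdac4*, a histone deacetylase that relays denervation to *Myog*, rose 1.85-fold (adjusted p = 0.000142, 1.54e-05 and 0.00049). *Dach2*, a repressor of *Myog* that is known to fall after denervation, was the one lower member, at 0.286, 3.01, 2.68 and 3.93 CPM in the controls and 0.371, 0.344 and 0.478 CPM in the mutants (log2FC -2.61 ± 0.58, adjusted p = 0.00629). These last 4 were chosen after their values were seen.

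Among 21 myogenic and fusion genes, 7 were higher and 5 lower (57.1%, against 20.1% of all tested genes). The median log2FC of -0.023 thus hid changes in both directions (6 higher and 2 lower without Mtm1-/y + TAM replicate 1). *Myog*, the myogenin gene of differentiating myoblasts and denervated fibres, was at 6.05, 17.7, 5.26 and 5.64 CPM in the controls and at 64.8, 70.2 and 47.3 CPM in the mutants (log2FC 2.83 ± 0.44, adjusted p = 0.000887). WT + TAM replicate 2 held the highest control value but remained under every mutant. *Mymx*, a fusion peptide of myoblasts, had 4, 1, 0 and 0 counts in the controls and 60, 44 and 87 counts in the mutants (adjusted p = 0.000164), so that the size of its change rests on few control counts. The fusion gene *Mymk* rose 4.38-fold (adjusted p = 0.0184, and 0.0811 without Mtm1-/y + TAM replicate 1), and *Cd82*, a tetraspanin of muscle stem cells, rose 3.98-fold (adjusted p = 0.000128). *Pax7*, the transcription factor of satellite cells, was by contrast at 4.29, 7.7, 8.47 and 5.91 CPM in the controls and 1.54, 1.69 and 1.84 CPM in the mutants (log2FC -1.96 ± 0.24, adjusted p = 6.98e-05). All 3 mutants were below all 4 controls. *Myf6*, the myogenic factor of mature fibres, rose 2.46-fold and *Myod1* 2.05-fold (adjusted p = 1.61e-05 and 0.00681), and *Itga7*, the laminin receptor subunit of muscle, rose 1.57-fold (adjusted p = 0.00124). *Pax7*, *Myf6*, *Myod1* and *Itga7* were singled out after their values were seen. *Notch3*, a Notch receptor found on satellite cells and on vessel mural cells, fell 2.13-fold (adjusted p = 0.000281).

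**Figure D2:**
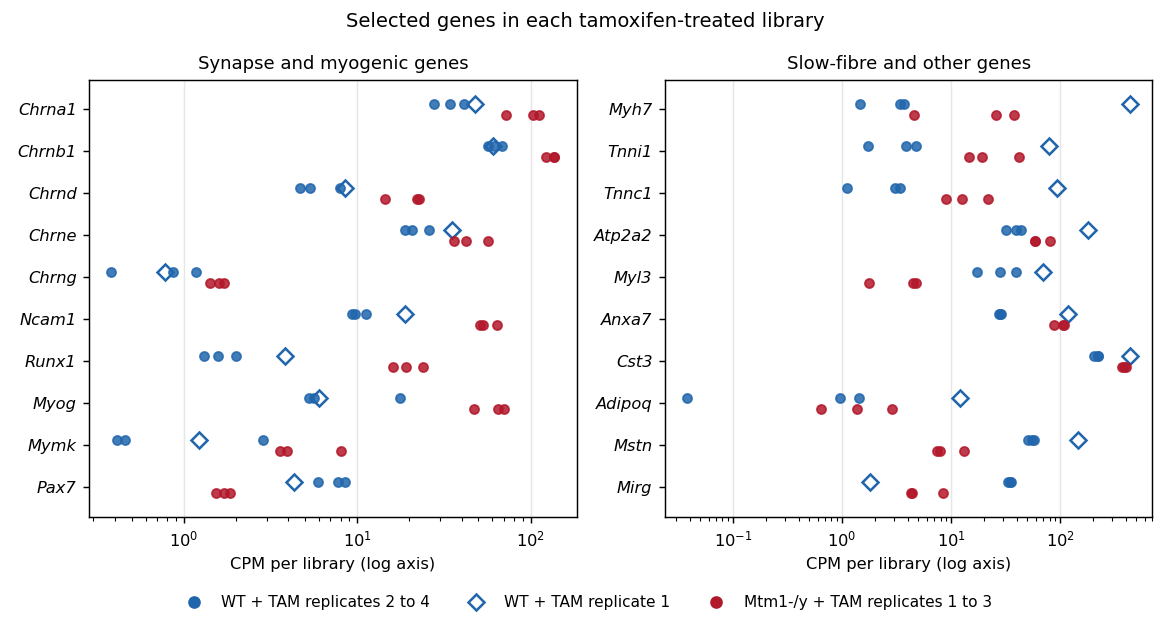
CPM on a log axis of synapse and myogenic genes (left) and of slow-fibre and other genes (right), a point per library, with WT + TAM replicate 1 as an open diamond. On the left *Pax7* is lower and the other genes are higher in the mutants. On the right replicate 1 stands apart from the 3 other WT + TAM libraries in every row but those of *Myl3* and *Adipoq*, for *Myh7* at 439 against 1.45 to 3.7 CPM.

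Of 18 tested sarcomere genes of developing muscle, 7 were higher and 1 lower (44.4%, against 20.1% of all tested genes, of which 10.6% higher), with a median log2FC of 0.94 (1.15 with 9 higher and 1 lower without WT + TAM replicate 1). *Myl4*, the embryonic and atrial light chain of myosin, was at 7.56, 7.49, 5.33 and 7.05 CPM in the controls and 37.9, 36.2 and 30.9 CPM in the mutants (log2FC 2.36 ± 0.21, adjusted p = 9.09e-06). The groups stood far apart. *Myh3*, the embryonic myosin heavy chain, rose 4.16-fold (5.02 to 15.6 CPM in the controls, 35.5 to 53 CPM in the mutants) and *Nes*, the intermediate filament nestin of immature fibres, rose 3.42-fold (adjusted p = 0.0023 and 0.00171). *Xirp1*, which binds actin in regenerating fibres, rose 3.21-fold (adjusted p = 0.00166). The lower member was *Dlk1*, an imprinted membrane protein of developing muscle (log2FC -1.59 ± 0.4, adjusted p = 0.0112, and 0.0584 without Mtm1-/y + TAM replicate 2). *Xirp1* and *Dlk1* were added after their values were seen. Myosin heavy chains are close in sequence, so reads could be split between them.

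Of 20 tested fast-fibre genes, 0 were higher and 4 lower, a share of 20% that is near the 20.1% of all tested genes (9.46% lower), with a median log2FC of -0.29 and 2 lower without WT + TAM replicate 3 or Mtm1-/y + TAM replicate 2. These 4 were *Actn3*, *Atp2a1*, *Mylk2* and *Gpd1*, of which *Gpd1*, the cytosolic glycerol phosphate dehydrogenase, had the largest change, at 908, 962, 1147 and 780.5 CPM in the controls and 497, 442 and 467 CPM in the mutants (log2FC -1.02 ± 0.25, adjusted p = 0.00956). Every mutant was below every control. The main fast heavy chain *Myh4* was at 44754 ± 6406 CPM (SD, n = 4) in WT + TAM and 37046 ± 2418 CPM (SD, n = 3) in Mtm1-/y + TAM, a difference within the spread (adjusted p = 0.313).

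Slow-fibre genes depended on WT + TAM replicate 1. With all libraries 3 were higher and 1 lower of 18 tested (22.2%, near the 20.1% of all tested genes) and the median log2FC was 0.074, and without that library 7 were higher and 1 lower and the median was 0.78. The 3 higher genes were *Actn2*, *Fhl1* and *Hspb7*, and 0 were higher without WT + TAM replicate 3 or Mtm1-/y + TAM replicates 2 or 3. *Myh7*, the slow myosin heavy chain, was at 439, 3.42, 1.45 and 3.7 CPM in WT + TAM replicates 1 to 4 and at 4.61, 26 and 37.7 CPM in the mutants. Replicate 1 exceeded every mutant, while replicates 2 to 4 lay under every mutant. Its log2FC was -2.28 (adjusted p = 0.329) with replicate 1 and 3.04 (adjusted p = 0.00432) without it. The slow troponins behaved likewise. *Tnni1* was at 79.3, 4.74, 1.71 and 3.85 CPM against 14.6, 41.8 and 19.2 CPM (log2FC 0.18 with and 2.92 without replicate 1, adjusted p = 0.922 and 0.000484). *Tnnc1* was at 94.2, 3.36, 1.11 and 3.09 CPM against 8.96, 21.8 and 12.5 CPM (log2FC -0.81 and 2.57, adjusted p = 0.66 and 0.000588). In both, replicate 1 was the highest of the 7 libraries and the 3 other controls were the lowest. *Atp2a2*, the slow and cardiac calcium pump, was at 181, 44, 31.8 and 39.7 CPM against 58.5, 80.2 and 59.3 CPM (log2FC -0.16 and 0.78, adjusted p = 0.847 and 0.00629). These 4 genes were named after their values were seen. *Hspb7*, a small heat shock protein of slow and cardiac muscle, rose 2.89-fold (adjusted p = 0.02) but not past the threshold without WT + TAM replicate 3 or Mtm1-/y + TAM replicates 2 and 3 (0.0544 to 0.0665).

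Turning to the compartment in which myotubularin acts, 5 of 26 phosphoinositide and membrane-remodelling genes were higher and 7 lower, *Mtm1* among the latter. This share was 46.2%, against 20.1% of all tested genes, and the median log2FC was -0.14. Without Mtm1-/y + TAM replicate 2, 2 were higher and 4 lower, beside 1656 DEGs among all 15681 genes then tested. *Vac14*, the scaffold of the kinase complex that phosphorylates phosphatidylinositol 3-phosphate, was at 22.4, 23.8, 28 and 25.7 CPM in the controls and 43.6, 49.2 and 47.5 CPM in the mutants (log2FC 0.9 ± 0.13, adjusted p = 0.000373). All mutants were above all controls. Of the relatives of myotubularin, *Mtmr3*, an active phosphatase, and *Mtmr10*, an inactive member of the family, had log2FC of -0.46 ± 0.09 and -0.5 ± 0.12 (adjusted p = 0.00264 and 0.0079). *Speg*, a kinase that binds myotubularin at the triad, fell 1.44-fold (adjusted p = 0.00801). *Bin1* and *Dnm2*, which remodel membranes and are themselves genes of centronuclear myopathy, rose 1.6-fold and 1.23-fold (adjusted p = 0.00433 and 0.0182), and *Cav3*, the caveolin of muscle, rose 1.65-fold (adjusted p = 0.0181). Without Mtm1-/y + TAM replicate 2 the calls of *Dnm2* and *Cav3* were lost (0.101 and 0.106). *Mtmr3*, *Mtmr10*, *Speg*, *Bin1* and *Dnm2* were singled out after their values were seen.

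Of 24 triad and calcium-handling genes, 5 were higher and 3 lower (33.3%). Of all tested genes 20.1% were DEGs, 10.6% higher and 9.46% lower. The median log2FC of the list was -0.18, and 6 were higher and 3 lower without WT + TAM replicate 1. Sarcolipin led the list. Among accessory subunits of the T-tubule calcium channel, *Cacng1* and *Cacnb1* rose. *Cacng1* was at 267, 216, 258 and 212 CPM in the controls and 672, 683 and 678 CPM in the mutants (log2FC 1.51 ± 0.15, adjusted p = 1.31e-05), and *Cacnb1* at 218, 251, 256 and 214 against 407, 479 and 429 CPM (log2FC 0.9 ± 0.13, adjusted p = 0.000343). The mutants stood above the controls in both, and in *Cacng1* they differed little among themselves. *Jph1*, the junctophilin that bridges the T-tubule and the sarcoplasmic reticulum, fell 1.45-fold and *Orai1*, the pore of store-operated calcium entry, rose 1.41-fold (adjusted p = 0.00549 and 0.00428), both named after their values were seen.

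Of 28 growth-signalling genes, 3 were higher and 2 lower, a share of 17.9% beside the 20.1% of all tested genes. *Mstn* was one of the lower genes and *Inhbb*, a subunit of inhibins and activins, the other (log2FC -1.53 ± 0.43, adjusted p = 0.0202, and 0.0663 to 0.0787 without WT + TAM replicate 3 or Mtm1-/y + TAM replicates 2 and 3). *Fst*, which encodes follistatin, a secreted inhibitor of myostatin and activins, was at 4.09, 3.31, 2.34 and 1.72 CPM in the controls and 19.98, 13.1 and 11.8 CPM in the mutants (log2FC 2.39 ± 0.28, adjusted p = 5.4e-05). All mutants were above the highest control. *Igfbp2*, a binding protein of insulin-like growth factors, had 8, 1, 1 and 2 counts in the controls and 152, 58 and 252 counts in the mutants (adjusted p = 0.00546), and the kinase gene *Akt2* rose 1.44-fold (adjusted p = 0.00206). *Akt2* was named after its values were seen.

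Ubiquitin ligase and atrophy genes held 5 higher and 1 lower of 23 tested (26.1%, against 20.1% of all tested genes), and a median log2FC of 0.14. *Eda2r*, a receptor of the tumour necrosis factor family linked to muscle wasting, was at 9.93, 6.27, 5.86 and 18.5 CPM in the controls and 162, 128 and 119 CPM in the mutants (log2FC 3.75 ± 0.34, adjusted p = 1.85e-05). Every mutant was far above the controls. The ubiquitin ligase gene *Fbxo30* rose 1.83-fold and the p53 regulator *Mdm2* rose 1.62-fold, while the transcription factor gene *Foxo4* fell 1.72-fold (adjusted p = 0.00124, 0.00106 and 0.000949). *Trim63*, the ligase MuRF1 that marks acute atrophy, was at 163, 305, 373 and 615 CPM against 679, 547 and 441 CPM and was not a DEG (adjusted p = 0.321). Its control values spread widely and covered part of the mutant range.

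In the autophagy and lysosome list 2 were higher and 1 lower of 24 (12.5%, under the 20.1% of all tested genes), and 1 and 0 without Mtm1-/y + TAM replicate 3 (median log2FC 0.047). *Sqstm1*, the autophagy receptor p62, rose 1.52-fold (adjusted p = 0.0188), though not past the threshold without Mtm1-/y + TAM replicates 1 and 3 (0.052 to 0.0726). *Tfe3*, a transcription factor of lysosomal genes, rose 1.34-fold (adjusted p = 0.00798). The lower member was the autophagy kinase gene *Ulk2* (log2FC -0.47, adjusted p = 0.0218, and 0.0656 to 0.0915 without Mtm1-/y + TAM replicates 2 and 3). Of 23 heat shock genes 8 were higher and 0 lower (34.8%, against 10.6% higher of all tested genes, and 8 higher and 1 lower without WT + TAM replicate 1). Without Mtm1-/y + TAM replicate 2, 5 were higher and 0 lower, beside 949 higher among all 15681 genes then tested. *Hspb8*, a small heat shock protein that hands misfolded proteins to autophagy, was at 190.3, 234, 215 and 203 CPM in the controls and 972, 1021 and 1006 CPM in the mutants (log2FC 2.25 ± 0.19, adjusted p = 5.08e-06). The spread within each group was small beside the 4.75-fold difference. *Cryab*, alpha-B crystallin, which stabilises desmin, rose 2.49-fold and its partner *Bag3* 1.57-fold (adjusted p = 0.0019 and 0.00683), both named after their values were seen. *Hspb1* rose 3.73-fold (12.3 to 13.4 CPM in the controls, 41.6 to 60.2 CPM in the mutants) (adjusted p = 9.04e-06). The inducible chaperone *Hspa1a*, which has a near-identical neighbour and may share reads with it, rose 2.64-fold (adjusted p = 0.0117, and 0.091 without Mtm1-/y + TAM replicate 2).

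Receptors for steroid and thyroid hormones, their coactivators and their targets held 0 higher and 7 lower of 17 tested (41.2%, against 9.46% lower of all tested genes) and a median log2FC of -0.5 (0 and 8, -0.47, without WT + TAM replicate 1). These 7 were receptors and coactivators, and none was a target gene. Without WT + TAM replicates 3 or 4 or Mtm1-/y + TAM replicates 2 or 3, 5 were lower. *Esr1*, which encodes oestrogen receptor alpha, a target of tamoxifen, was at 26, 24.2, 29 and 29.4 CPM in WT + TAM replicates 1 to 4 and at 18.6, 16.4 and 17.5 CPM in Mtm1-/y + TAM replicates 1 to 3 (log2FC -0.64 ± 0.15, adjusted p = 0.00929). Every mutant was below every control. The membrane oestrogen receptor gene *Gper1* was at 2.21, 2.45, 2.22 and 3.32 against 1.06, 1.27 and 1.36 CPM (log2FC -1.03 ± 0.23, adjusted p = 0.00589), the oestrogen-related receptor gene *Esrrb* fell 2.38-fold (adjusted p = 0.000824), and the nuclear receptor coactivator gene *Ncoa1* fell 1.71-fold (adjusted p = 0.00269). *Nr3c1*, the glucocorticoid receptor gene, fell 1.5-fold (adjusted p = 0.00735). The other lower members, the thyroid hormone receptor gene *Thrb* and the coactivator gene *Ncoa3*, lost their calls in 4 and 10 of the 15 omissions (adjusted p up to 0.138 and 0.132). *Nr3c1*, *Thrb* and *Ncoa3* were named after their values were seen. In the untreated mice the log2FC of *Esr1* was -0.7 (adjusted p = 0.00176), and those of *Gper1* and *Esrrb* were -0.22 and -0.93 (adjusted p = 0.452 and 0.00178). The difference between the treated and untreated log2FC was not past the threshold for any of the 3 (adjusted p of the interaction = 0.925, 0.409 and 0.688).

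Most of the tested transcripts of the mitochondrial genome, which encode subunits of the respiratory chain, were lower. Of 13 listed, 12 were in the counts and 7 passed the count filter. *mt-Atp6*, *mt-Co2*, *mt-Co3*, *mt-Nd3* and *mt-Nd4l* did not pass it, so nothing is said of them. Of the 7 tested, 6 were lower and 0 higher (85.7%, against 9.46% lower of all tested genes), with a median log2FC of -0.66. Without Mtm1-/y + TAM replicate 2, 3 were lower, beside 707 lower among all 15681 genes then tested. All 7 were lower without WT + TAM replicate 1 (median -0.81). *mt-Nd5* was at 6323, 7488, 7932 and 10912 CPM in the controls and 4919, 4189 and 3706 CPM in the mutants (log2FC -0.93 ± 0.19, adjusted p = 0.00382), *mt-Nd2* fell 1.81-fold (adjusted p = 0.00813), and *mt-Nd6*, the only one of them on the other strand, fell 2.13-fold (adjusted p = 0.00523). These 3 held their calls in every omission. For *mt-Co1* and *mt-Cytb*, which fell 1.58 and 1.5-fold (adjusted p = 0.0198 and 0.0272), WT + TAM replicate 1 lay close to the mutants, at 12791 CPM of *mt-Co1* against 10753 to 13272 CPM in the mutants. Their calls were lost without WT + TAM replicate 4 or Mtm1-/y + TAM replicates 2 and 3 (0.0559 to 0.0954) and without WT + TAM replicates 3 and 4 or Mtm1-/y + TAM replicates 1, 2 and 3 (0.0568 to 0.113). *mt-Nd1* was not a DEG with that library (-0.56 ± 0.2, adjusted p = 0.0581) and was one without it (-0.68, adjusted p = 0.0157).

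Nuclear genes for the respiratory chain held 0 DEGs of 30 in either direction with all libraries (edgeR) and 0 higher and 5 lower without WT + TAM replicate 1, with medians of -0.12 and -0.25. *Atp5b*, the catalytic subunit of ATP synthase, was at 2651, 3814, 3995 and 4374 CPM in the controls and 3222, 2868 and 3258 CPM in the mutants (log2FC -0.25, adjusted p = 0.273, and -0.38, adjusted p = 0.0347, without that library). Replicate 1 was the lowest of all 7 libraries. Fatty acid oxidation genes held 1 higher and 2 lower of 26 (11.5%, under the 20.1% of all tested genes), and 0 higher and 4 lower without WT + TAM replicate 1. With all libraries the 3 were close to the threshold with adjusted p values of 0.0392 for *Etfb*, 0.0459 for *Slc27a1* and 0.0418 for *Ppara*, which were not DEGs in 7, 11 and 9 of the 15 omissions (up to 0.128, 0.163 and 0.161, the highest in each case without a mutant library). Glycolysis and glycogen genes held 0 higher and 4 lower of 29 (13.8%, also under that share), 3 lower without WT + TAM replicate 1 and 1 lower without Mtm1-/y + TAM replicates 2 or 3. *Fbp2*, the muscle fructose bisphosphatase, fell furthest among the latter (66.9, 119.9, 147 and 125 CPM in the controls, 29.6, 28.2 and 58 CPM in the mutants) (log2FC -1.57 ± 0.31, adjusted p = 0.00345).

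Extracellular matrix genes held 1 higher and 0 lower of 27 (3.7%, far under the 20.1% of all tested genes), and 1 higher and 2 lower without WT + TAM replicate 1. Their median log2FC was -0.3 with and 0.12 without that library, whose summed level of these genes was 8440 CPM against 2680 to 4620 CPM in the 3 other controls. *Timp1*, an inhibitor of metalloproteases, was the single DEG with all libraries, at 1.76, 0.918, 0.41 and 1.75 CPM in the controls and 11.8, 12.8 and 6.82 CPM in the mutants (log2FC 3.14 ± 0.59, adjusted p = 0.00294). Integrin and adhesion genes changed in both directions, with 6 higher and 7 lower of 30 (43.3%, against 20.1% of all tested genes). Without WT + TAM replicate 1 there were 6 and 8. Without Mtm1-/y + TAM replicate 2 there were 3 and 5, beside 1656 DEGs among all 15681 genes then tested. *Itgb1*, the beta subunit shared by most matrix receptors, rose 1.6-fold and *Tln2*, a talin that links integrins to actin, fell 1.67-fold (adjusted p = 0.00561 and 0.00534), both named after their values were seen. The integrin subunits *Itga1* and *Itga6*, for collagen and laminin receptors, fell 1.91 and 1.95-fold (adjusted p = 0.00209 and 0.00798), and for *Itga6* WT + TAM replicate 1 was within the mutant range at 21.5 CPM.

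Among 23 immediate early genes 3 were higher and 1 lower (17.4%, under the 20.1% of all tested genes), and 4 and 1 without WT + TAM replicate 1. *Fosl1*, an AP-1 subunit, had 0 counts in all 4 WT + TAM libraries and 28, 43 and 26 counts in the mutants. Against the limit that 3 counts over the control group allow (0.0268 CPM, counting error only), it was at least 40.7-fold higher (adjusted p = 0.000322). *Junb*, a partner of Fos proteins, was at 7.23, 8.26, 5.14 and 7.7 against 27.7, 22.4 and 22.3 CPM (log2FC 1.77 ± 0.23, adjusted p = 0.000164), with the groups well apart. *Myc* rose 2.62-fold (adjusted p = 0.0131, and 0.0647 without Mtm1-/y + TAM replicate 1). *Nr4a1*, an orphan nuclear receptor induced by exercise, fell 1.97-fold (adjusted p = 0.00478). Of 19 cell cycle genes 2 were higher and 1 lower (15.8%), namely *Ccne1* (log2FC 1.18, adjusted p = 0.014, and 0.0805 without Mtm1-/y + TAM replicate 2), *Cdk4* (0.35, adjusted p = 0.0192, and 0.0539 to 0.0599 without WT + TAM replicate 4 or Mtm1-/y + TAM replicates 1, 2 and 3) and, as the lower one, the cyclin D2 gene *Ccnd2* (-0.98, adjusted p = 0.0069). The remaining lists held 0 higher and 1 lower of 18 integrated stress response genes (5.56%, *Atf5*, log2FC -0.42, and 1 and 1 without WT + TAM replicate 1), 1 higher and 1 lower of 13 polyamine genes (15.4%, *Sat2* 0.79 and *Azin2* -0.98), and 0 DEGs in edgeR of 19 circadian clock genes. Of all tested genes 20.1% were DEGs. *Atf5* and *Azin2* lost their calls without Mtm1-/y + TAM replicates 1 and 2 (0.0541 to 0.0769 and 0.058 to 0.0979).

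**Figure D3:**
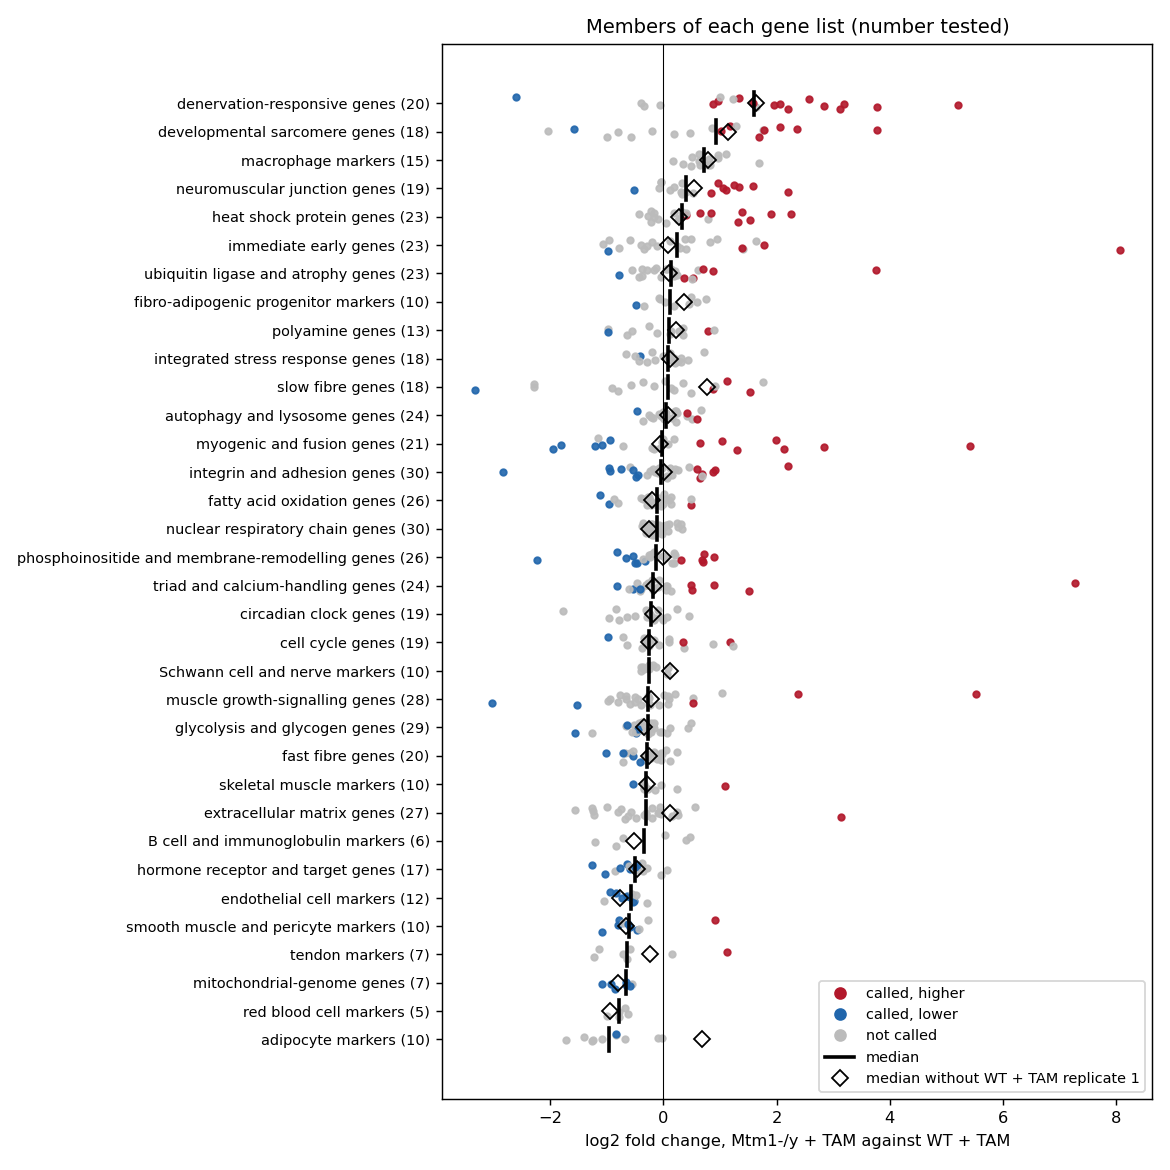
Log2FC of each tested member (points, coloured where a DEG), with the median of each list (bar) and the median without WT + TAM replicate 1 (diamond). Denervation-responsive genes lie furthest right (median 1.61), and the diamonds of slow fibre genes (0.78) and adipocyte markers (0.68) lie far from their bars.

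Markers of the other cell types of muscle were read with the same model. Of 12 endothelial markers 0 were higher and 7 lower (58.3%, against 9.46% lower of all tested genes, 0 and 8 without WT + TAM replicate 1 and 0 and 2 without Mtm1-/y + TAM replicate 1), and their summed level was 531 CPM in WT + TAM replicate 1, 812 to 888 CPM in the other controls and 417 to 539 CPM in the mutants. *Cdh5*, the cadherin of endothelial junctions, was at 91.9, 158, 143 and 177 CPM against 71.8, 76.3 and 91.2 CPM (log2FC -0.84 ± 0.19, adjusted p = 0.00589), and *Tek*, the angiopoietin receptor, fell 1.66-fold (adjusted p = 0.00465). Smooth muscle and pericyte markers held 1 higher and 6 lower of 10 (70%, against 20.1% of all tested genes). Without WT + TAM replicate 1 there were 1 and 7. Without Mtm1-/y + TAM replicate 2 there were 0 and 3, beside 1656 DEGs among all 15681 genes then tested. The sums were 871 CPM in WT + TAM replicate 1, 926 to 988 CPM in the other controls and 572 to 678 CPM in the mutants. *Myh11*, the smooth muscle myosin, and *Acta2* fell 1.74 and 1.73-fold (adjusted p = 0.00283 and 0.0127), while *Cspg4*, the proteoglycan NG2, rose 1.89-fold (adjusted p = 0.0163). *Acta2* and *Cspg4* were not DEGs without Mtm1-/y + TAM replicate 2 (0.067 and 0.0968).

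All 15 macrophage markers had a log2FC above 0 (median 0.71), but 0 were DEGs in edgeR, and 0 to 4 over the 15 single-library omissions. *Lyz2*, the abundant lysozyme of macrophages, was at 18.8, 16.4, 14.1 and 18.8 CPM in the controls and 28.5, 40.8 and 30.2 CPM in the mutants (adjusted p = 0.0717). The summed level of the 15 was 62.6 CPM in WT + TAM replicate 1, 47.7 to 72.8 CPM in the other controls and 75.4 to 130 CPM in the mutants. Adipocyte markers held 0 higher and 1 lower of 10 (10%, near the 9.46% lower of all tested genes). Their median log2FC of -0.96 became 0.68 without replicate 1. *Adipoq*, the adiponectin gene that defines adipocytes and that was named after its values were seen, was at 12, 1.43, 0.965 and 0.0381 CPM in the controls and 0.636, 2.89 and 1.38 CPM in the mutants. The DEG among them was *Pparg* (log2FC -0.83, adjusted p = 0.0231), which lost its call without WT + TAM replicate 4 or Mtm1-/y + TAM replicates 1 and 3 (0.0685 to 0.0986). Fibro-adipogenic progenitor markers held 0 higher and 1 lower of 10 (*Tcf4*, log2FC -0.49, adjusted p = 0.00346), also near that share. Without WT + TAM replicate 1, 2 were higher and 1 lower. The sums were 1410 CPM in WT + TAM replicate 1, 760 to 790 CPM in the other controls and 1070 to 1430 CPM in the mutants. There were 0 DEGs among 10 Schwann cell and nerve markers, 5 red blood cell markers and 6 immunoglobulin and B cell markers in edgeR (1 red blood cell marker lower without WT + TAM replicate 1), 1 higher among 7 tendon markers (*Scx*, adjusted p = 0.0445, lost on omission of any library other than WT replicates 3 and 4, Mtm1-/y replicates 1, 2, 3 and 4 and Mtm1-/y + TAM replicate 3 with 0.0518 to 0.194), and 1 higher and 1 lower, *Des* and *Actn3*, among 10 skeletal muscle markers. Of 10 T cell markers 0 reached the count filter. The part of these cells in the changes above was not tested.

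The library that stood apart changed the outcome for named genes as well as for lists. Without WT + TAM replicate 1, 637 further genes became DEGs and 419 ceased to be, and the log2FC of 195 genes moved by more than 1. *Anxa7*, an annexin that binds membranes in a calcium-dependent way, had the smallest adjusted p among the genes called only without it, at 119, 27.6, 27.8 and 28.7 CPM in WT + TAM replicates 1 to 4 and 108, 107 and 87.4 CPM in the mutants (log2FC 0.99, adjusted p = 0.129, against 1.85, adjusted p = 9.75e-06, without it). Replicate 1 was at the level of the mutants and the 3 other controls were far below. The next genes by that measure were *Myoc* (0.7 to 1.4), *Cst3* (0.5 to 0.83), *5430431A17Rik* (0.79 to 1.59) and *Mical2* (-0.86 to -1.15), with adjusted p values of 0.206, 0.0909, 0.217 and 0.0808 with it and 6.08e-05, 6.08e-05, 0.000124 and 0.000146 without it. The 5 with the smallest adjusted p among the 419 called only with it were *Pdgfd*, *Adamts2*, *Lrrc30*, *Trim33* and *Hipk2*, with adjusted p values of 0.021, 0.0221, 0.0223, 0.0229 and 0.0233 that became 0.0524, 0.0517, 0.0511, 0.0521 and 0.0511.

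**Figure D4:**
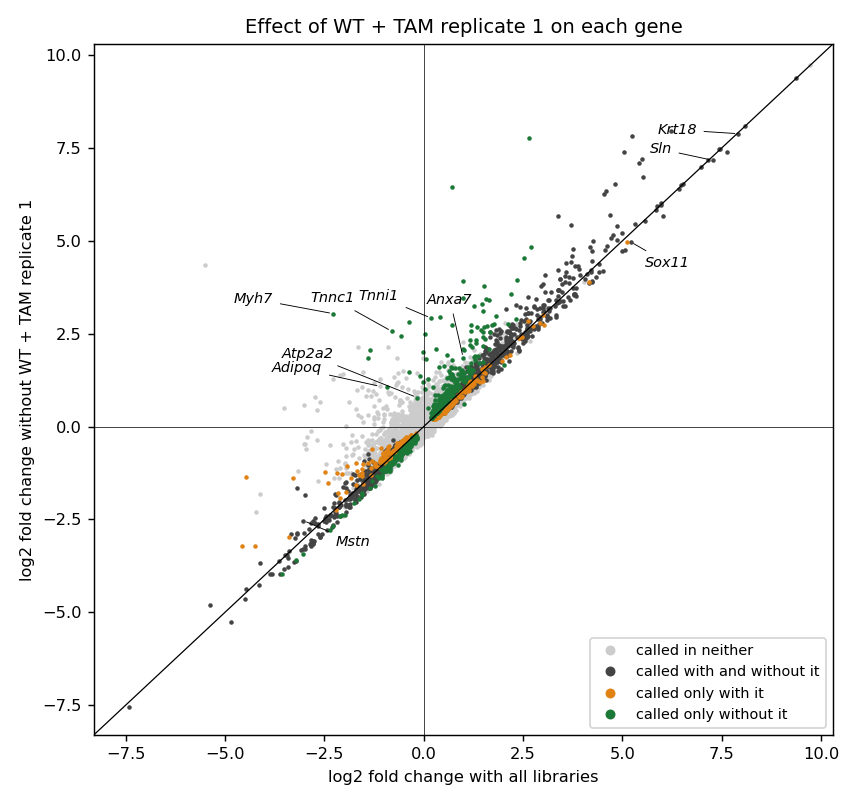
Log2FC of each gene with all libraries (x axis) against that without WT + TAM replicate 1 (y axis), with the diagonal drawn and colours for the genes called with both, either or neither. Most genes follow the diagonal, and slow-fibre genes such as *Myh7* (-2.28 to 3.04) and *Tnnc1* (-0.81 to 2.57) leave it.

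Finally, the genotype difference under tamoxifen was set beside that of the 8 untreated mice, which share no library with it. The untreated comparison held 4727 DEGs (30.4%), of which 2407 (15.5%) were higher and 2320 (14.9%) lower, and 4524 without Mtm1-/y replicate 1, the untreated library that stood apart. Of the 3121 DEGs under tamoxifen, 3013 (96.5%) had the same direction in untreated mice and 2143 were also DEGs there, which is 68.7% of one set and 45.3% of the other, 2142 of them in the same direction. The share of all tested genes with the same direction was not counted, so the 96.5% has no background beside it. Both comparisons took the spread of each gene from the same fit, so their calls are not independent. Across all tested genes, which are not independent replicates, the 2 sets of log2FC had a Pearson r of 0.717 (0.725 without WT + TAM replicate 1). The 978 genes that were DEGs under tamoxifen alone are not thereby shown to differ between the comparisons. In the test of that difference, the interaction of genotype with tamoxifen, 0 genes passed in edgeR (smallest adjusted p = 0.176) and 1650 had an unadjusted p under 0.05, against 74 passing in DESeq2.

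The 5 genes with the smallest unadjusted p of the interaction were *Zfp36*, *Jund*, *Romo1*, *Scand1* and *Nfix*, and in all of them the untreated difference was the larger. *Zfp36*, which encodes an RNA-binding protein that destabilises transcripts with AU-rich elements, had a log2FC of 0.13 ± 0.13 under tamoxifen and 1.13 in untreated mice (unadjusted p = 3.29e-05 in edgeR, adjusted p = 0.176). *Jund*, an AP-1 subunit, had 0.41 against 2.22, and *Romo1*, a small protein of the mitochondrial inner membrane, 0.22 against 1.11. The values were 0.1 against 2.32 for *Scand1* and -0.2 against 0.59 for *Nfix*. Without WT + TAM replicate 1, 7 genes (0.0451%) passed the test, *Zfp36* and *Romo1* among them (adjusted p = 0.044 for each). *Mgst1*, a membrane-bound glutathione transferase, had the smallest adjusted p (0.00891), with a log2FC of 0.31 under tamoxifen without that library and -1.75 in untreated mice. *Mthfd2*, a mitochondrial folate enzyme, had 0.82 and -0.61, and *H2-K1*, a class I histocompatibility antigen, -0.74 and 0.29 (adjusted p of the interaction 0.044 for both). These 3 were named after their values were seen.

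**Figure D5:**
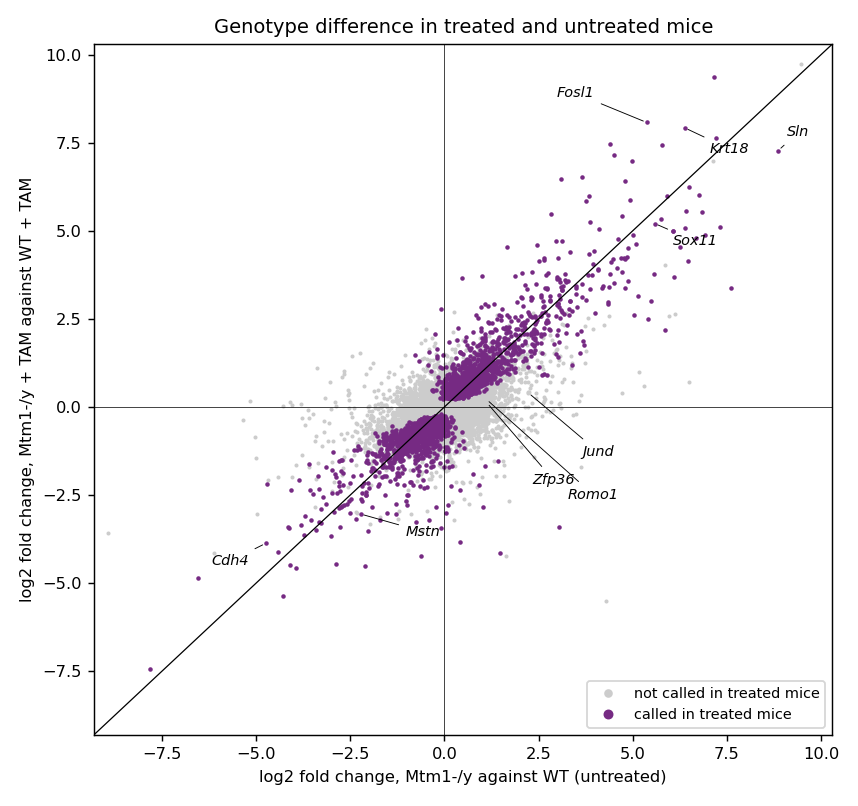
Log2FC of each tested gene in untreated mice (x axis) against that in tamoxifen-treated mice (y axis), with the diagonal drawn and the 3121 DEGs of the treated comparison coloured. DEGs such as *Sln* (8.86 and 7.28) and *Cdh4* (-4.74 and -3.87) lie far from 0 on both axes, and *Zfp36*, *Jund* and *Romo1* lie near 0 on the y axis.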

How the data were processed

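Total RNA of tibialis anterior was extracted with TRI Reagent and made into TruSeq Stranded mRNA libraries, per the labels. The authors deposited raw read counts per gene for 15 libraries. The builds mm10 and GRCm38 are in the submitters' processing notes, as are STAR 2.5.3a, Bowtie2 2.2.8, HTSeq 0.6.1p1 and cutadapt 1.10, while the annotation release, the strand setting and the role of each tool are not stated there, so reads of overlapping antisense genes and near-identical copies cannot be told apart. All 30672 gene identifiers were matched to GENCODE M21 for symbols and positions (GRCm38).

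From the counts, genes passing edgeR's filter (minimum count 10, 15533 genes) were fitted in edgeR 4.0.16 (R 4.3.3) with TMM factors, 4 group means over all 15 libraries and the quasi-likelihood test (11 residual degrees of freedom), with Benjamini-Hochberg adjusted p and a threshold of 0.05. The common biological coefficient of variation was 20.8%. CPM values are not corrected for gene length, so levels were not compared between genes. The method was tested on simulated data. The alternatives were RLE and upper-quartile factors, no filter, a minimum count of 50, DESeq2 1.42.0, limma-voom (limma 3.58.1), an absolute log2FC over 1, the replicate block, the treated libraries alone, and omission of each library. DESeq2, limma-voom and edgeR p-values come from models fitted across all genes. The floor given for *Fosl1* covers counting error only. Standard errors come from the quasi-likelihood fit and include the estimated spread between libraries.

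The comparison, the gene lists and the rule for named genes were chosen with earlier results of these data known. The rule took *Mtm1*, the 10 largest changes each way, the 5 most abundant DEGs each way, the leading members of each list, the genes gaining or losing a call without WT + TAM replicate 1, and those with the smallest interaction p. Of the list members, the text names chiefly those that kept their call in every omission, and further DEGs of a list were added after their values were seen. Promoter windows are from RefSeq (GRCm38.p6), and a subunit gene without a window is named only. Of the genes that the rule took, 1 is left out and not reported here.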

Additional observations from a re-analysis of the deposited data

Results flagged for a closer look

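In WT + TAM, the highest or lowest of the 4 libraries stood apart from the other 3 by Dixon's test in 26 of 226 quantities tested. These were the CPM of single genes and the summed CPM of each list. The single genes were a followed set of 192, not all of which are named in this text. Chance passes this test in about 1 of 20 groups. Replicate 1 was the library concerned in 16, a number that owes part to the choice of genes, since several were taken because their values changed without it. It was the highest for *Ahnak2* (8.58 CPM against 2.94 to 3.87 in the others), *Mstn* (147 against 50.5 to 57.3), *Myh7* (439 against 1.45 to 3.7), *Tnni1* (79.3 against 1.71 to 4.74), *Tnnc1* (94.2 against 1.11 to 3.36) and *Atp2a2* (181 against 31.8 to 44). It was also the highest for *Anxa7* (119 CPM against 27.6 to 28.7), *Myoc* (21 against 5.45 to 6.66), *Cst3* (439 against 203 to 224), *5430431A17Rik* (30.3 against 6.06 to 9.02), *Adipoq* (12 against 0.0381 to 1.43), *Mgst1* (19.3 against 4.37 to 6.73) and the summed fibro-adipogenic progenitor markers (1410 against 760 to 790). It was the lowest for *Mdm2* (51.8 CPM against 56 to 56.8), *Itga6* (21.5 against 45.8 to 47.3) and *Mirg* (1.8 against 33.4 to 35.7).

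Replicate 4 was the highest for *Adamts8* (38.5 CPM against 7.4 to 7.91), *Actn2* (2340 against 1070 to 1230), *Esrrb* (5.8 against 3.96 to 4.18), *Pparg* (5.83 against 4.03 to 4.29), *Kcnn3* (9.91 against 7.72 to 8.05) and the summed heat shock genes (5980 against 3970 to 4280), and the lowest for *Vwf* (41.8 against 50.7 to 51.2). Replicate 2 was the highest for *Myog* (17.7 CPM against 5.26 to 6.05) and the summed immunoglobulin and B cell markers (14.4 against 5.56 to 6.73), and replicate 3 the lowest for *Hspb1* (12.3 against 13.3 to 13.4).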

How the results depend on the processing

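The count of 3121 DEGs ranged from 2402 (no filter on low counts, which tests more genes) to 3698 (DESeq2) over other scalings, filters and tools, was 2948 with the treated libraries alone and 934 with an absolute log2FC over 1 (1536 of 4727 in untreated mice). Leaving out libraries gave 1656 (Mtm1-/y + TAM replicate 2) to 4600 DEGs (both Mtm1-/y replicate 1 and WT + TAM replicate 1 left out), 3693 to 5257 in untreated mice and 0 to 14 for the interaction. The interaction held 2 genes with no filter, 74 in DESeq2, 3 without Mtm1-/y replicate 4, 7 without WT + TAM replicate 1 and 14 with Mtm1-/y replicate 1 also left out. With the replicate block there were 2792 DEGs (4473 untreated, 0 interaction). The deviations of same-numbered WT + TAM and Mtm1-/y + TAM libraries correlated at -0.09, 0.15 and 0.085, and those of differently numbered ones at -0.25 to 0.18. A pairing by number was thus not seen, but so few values cannot exclude one.

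A set of 192 genes was followed through the alternatives, and not all of them are named in this text. Direction turned in 7 of the 192, and the cause was not tested. *Myh7* (main log2FC -2.28) became 1.2 in limma-voom, 0.084 with the block, and -2.84 to 3.06 over omissions. *Tnnc1* (-0.81) became 1.51, 0.31 and -1.24 to 2.58. *Atp2a2* (-0.16) became 0.21, 0.047 and -0.42 to 0.78. *Adipoq* (-1.09) became 0.72 in limma-voom and -1.77 to 1.1 over omissions. Omissions gave -0.401 to 2.94 for *Tnni1* (0.18), -0.598 to 0.314 for *Mgst1* (-0.35) and -0.00347 to 0.23 for *Scand1* (0.1). Of the 170 DEGs in this followed set, 101 kept their call in all 15 omissions and 100 in every alternative at the same threshold. Without Mtm1-/y + TAM replicate 2, 59 lost it. With 3 mutant mice, genes of low count or wide spread may go uncalled, and a missing call does not show equality.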

Other observations

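Gene families outside the lists were chosen after values were seen, and counts over them are a description, beside 20.1% called of all tested genes. Keratins held 4 higher and 0 lower of 7 tested, with *Krt8*, the partner of keratin 18, at 0, 0.255, 0.0965 and 0 CPM in WT + TAM and 9.12, 2.99 and 4.63 CPM in Mtm1-/y + TAM (log2FC 6.02 ± 0.86, adjusted p = 0.000385). Calcium-binding S100 genes held 7 higher and 0 lower of 9, *S100a13* rising 5.5-fold (adjusted p = 2.75e-06), and annexins 5 higher and 0 lower of 11 (6 and 0 without WT + TAM replicate 1), with 3.32-fold for *Anxa2* and 3.5-fold for *Anxa4* (adjusted p = 0.00657 and 9.09e-06). All 3 tested metallothionein genes were higher, and 2 without WT + TAM replicate 1. Of 38 genes with symbols of the proteasome series (Psma to Psmd), not all of which encode subunits, 23 were higher and 0 lower (60.5%). Their median log2FC was 0.35, and 19 were higher without WT + TAM replicate 1. Cytosolic ribosomal protein genes (14 higher and 0 lower of 78, 17.9%), mitochondrial ribosomal protein genes (13 and 0 of 77, 16.9%) and zinc finger genes named Zfp (15 and 42 of 342, 16.7%) lay under the share of all tested genes.

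Semaphorins, which guide axons and vessels, held 1 higher and 7 lower of 19 (2 and 7 without WT + TAM replicate 1), and potassium channel subunits 4 higher and 8 lower of 48 (25%, and 5 and 12 without that library). Of 7 tested mitochondrial tRNAs 0 were higher and 4 lower. In the imprinted Dlk1-Meg3 region 4 of 5 tested transcripts were lower. Their summed level was 107 CPM in WT + TAM replicate 1, 710 to 990 CPM in the other controls and 122 to 200 CPM in the mutants, so replicate 1 lay below every mutant. *Mirg*, a microRNA host of that region, had a log2FC of -2.19 (adjusted p = 0.0459) with and -2.58 (adjusted p = 0.000246) without that library, and its call with all libraries was lost in 14 of the 15 omissions (0.0506 to 0.155), all but that of WT + TAM replicate 1.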
